A study of Homo sapiens with 9 samples.

Results

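CCN1, CCN2, ANKRD1, AMOTL1, AMOTL2, LATS2, AJUBA, YAP1, WWTR1 and TEAD1 encode targets and regulators of the transcription factor complex of YAP and TEAD. With earlier results of these data known, these 10 of the 57500 genes in the count files were chosen by name. They are targets of the complex, regulators of YAP or its core proteins. They were matched by current or previous symbol (CYR61 for CCN1, CTGF for CCN2) and then by gene identifier. The table the authors made for HBC530 named all 10, that for MsOc3HBC named 9 of them, ANKRD1 being matched through the former, and all 10 were found by identifier in the counts.

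The Hippo pathway is a kinase cascade in which LATS kinases phosphorylate the coactivators YAP and TAZ (the product of WWTR1), which are then held in the cytoplasm by 14-3-3 proteins or degraded. Unphosphorylated YAP and TAZ enter the nucleus and bind TEAD factors at promoters and enhancers, where they switch on genes of growth and matrix such as CCN1, CCN2 and ANKRD1. The pathway responds to cell density, to the actin cytoskeleton and to serum, and some of its targets (AMOTL2, LATS2) are themselves inhibitors of YAP.

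HEK293T, an established human embryonic kidney line, was incubated for 5 h with HBC530, with MsOc3HBC or with the vehicle DMSO, in 3 biological replicates each. HBC530 is a fluorogenic ligand of the Pepper RNA aptamer and binds without a covalent bond. MsOc3HBC has the same HBC scaffold and carries a mesyloxypropyl handle that can alkylate the RNA it binds. Both ligands were given at 10 µM, and poly(A) RNA was sequenced with paired-end reads. All 9 libraries came from this line, grown in serum-containing medium, and no transfection with an aptamer plasmid is given for the cells sequenced. Since the libraries are of bulk RNA, a change in a few cells and a change in every cell cannot be told apart.

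The libraries held between 28056929 and 62205366 counts on genes, with the lowest totals in replicate 3 of HBC530 and of MsOc3HBC. These 2 libraries lay apart from the other 7 along the first principal component of 18041 genes (36.94 and 48.79, against -20.28 to -4.28). Mitochondrial genes took between 1.9 and 3.5% of the counts. All 8 markers fixed for the HEK293T line exceeded a TPM (length-normalized transcript level) of 1, although the kidney factors PAX2 and LHX1 were low. The summed TPM of these 8 was 477 to 516 with DMSO, 506 to 534 with HBC530 and 497 to 527 with MsOc3HBC. Summed markers of fibroblasts (9.44 to 17.5 TPM), endothelium (0.063 to 0.279 TPM) leukocytes (2.22 to 3.04 TPM) and mature tubule (4.51 to 7.77 TPM, nearly all of it LRP2 at 4.46 to 7.69) were far lower, and 2 of the 5 tubule markers, UMOD and AQP2, were at 0 in every library.

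TEAD factors recognise the hexamer GGAATG, read as CATTCC on the other strand. The hexamer was sought in the 250 bases before each RefSeq transcription start (GRCh38.p14). This was done after 3 of the targets below were seen higher in the ligand libraries, and a link was not tested. Entries were found for 8 of the 10 genes, in 11 windows. CCN1 and TEAD1 had none. Of all 35116 RefSeq windows of this length, 11.89% held at least 1 copy on either strand, 0.94% held at least 2 and 0.08% held at least 3. CCN2 held 3 copies, which began at -169, -104 and -95 from the start. ANKRD1 held 2, at -220 and -128. AMOTL2 held 1 at its second start, at -69, and AJUBA held 1 at its second start, at -59. YAP1 held 1, at -162. The windows of AMOTL1, LATS2 and WWTR1 and the first starts of AMOTL2 and AJUBA had no copy. AJUBA and YAP1 held a copy while their HBC530 libraries overlapped DMSO. CCN1, whose HBC530 libraries all lay above DMSO, had no window. Below, capitals mark the hexamer in the promoters of the 3 genes with copies whose HBC530 libraries all lay above DMSO, given 5′ to 3′ along the gene from GRCh38.p14, with CCN2 on chr6:131951373-131951622, ANKRD1 on chr10:90921088-90921337 and the second start of AMOTL2 on chr3:134374448-134374697, each on the minus strand.
CCN2: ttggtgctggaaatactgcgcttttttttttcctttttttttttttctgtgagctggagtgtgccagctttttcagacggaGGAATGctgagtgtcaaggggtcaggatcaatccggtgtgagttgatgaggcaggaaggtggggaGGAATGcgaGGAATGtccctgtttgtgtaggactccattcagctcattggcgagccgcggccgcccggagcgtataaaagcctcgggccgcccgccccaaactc
ANKRD1: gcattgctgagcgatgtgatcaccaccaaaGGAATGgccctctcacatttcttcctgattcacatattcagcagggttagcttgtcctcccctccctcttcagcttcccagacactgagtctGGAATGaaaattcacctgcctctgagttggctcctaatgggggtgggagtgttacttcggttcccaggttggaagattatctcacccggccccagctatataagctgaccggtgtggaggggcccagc
AMOTL2: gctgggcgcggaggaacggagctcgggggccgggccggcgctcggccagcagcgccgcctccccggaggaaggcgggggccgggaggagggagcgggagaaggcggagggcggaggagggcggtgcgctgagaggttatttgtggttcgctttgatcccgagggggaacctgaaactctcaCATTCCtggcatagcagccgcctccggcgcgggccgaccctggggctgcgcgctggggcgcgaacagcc

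The ANKRD1 window also held 1 copy of TGANTCA (either strand), the recognition sequence of AP-1 factors, which 6.57% of all windows held and none of the other windows of these genes did. The CArG box, the element bound by serum response factor, was in none of the 11 windows and in 1.16% of all windows. The hexamer count describes these letters in this window, and binding was not measured.

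In the DMSO libraries the 10 genes spanned a 136-fold range of TPM, a scale that divides by exonic length and allows levels to be compared between genes. YAP1 stood highest at 23.4 ± 3.62 TPM (mean ± SD, n = 3 here and below), followed by AMOTL1 at 20.2 ± 1.85 and CCN1 at 16.4 ± 0.306. TEAD1 (10.7 ± 1.38), WWTR1 (9.37 ± 1.09), AMOTL2 (8.50 ± 0.207) and AJUBA (8.49 ± 0.421) formed a middle group. CCN2 (6.996 ± 1.12) and LATS2 (6.47 ± 0.81) came next. ANKRD1 was lowest at 0.172 ± 0.0391 TPM, at percentile 2.28 of the 18041 expressed genes, where YAP1 stood at percentile 68.8. The ranges over libraries overlapped between YAP1 and AMOTL1, TEAD1 and WWTR1, WWTR1 and AMOTL2, AMOTL2 and AJUBA, and CCN2 and LATS2, so the order within these pairs is not beyond their spread. No library of CCN1 fell in the range of AMOTL1 above it or of TEAD1 below it. YAP1 thus had more transcript per length than WWTR1, its paralogue, in every DMSO library.

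The secreted matrix proteins CCN1 and CCN2 and the nuclear cofactor ANKRD1 are the classical targets of YAP and TEAD, and their libraries with either ligand all lay above those with DMSO. Levels are given from here on as CPM, the count of a gene relative to the library total after TMM scaling. Fold changes are log2 values with their standard error (SE) from edgeR's quasi-likelihood test, and each adjusted p is the Benjamini-Hochberg value over every gene tested in the comparison. Both comparisons with DMSO use the same 3 DMSO libraries, so their values are set side by side and are not independent of each other.

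CCN2 (ENSG00000118523, chromosome 6, 131948176 to 131951373, minus strand) encodes connective tissue growth factor. Its level in replicates 1, 2 and 3 was 5.34, 4.87 and 4.06 CPM with DMSO (4.76 ± 0.652), 7.82, 8.70 and 8.18 with HBC530 (8.23 ± 0.438) and 6.48, 6.66 and 7.46 with MsOc3HBC (6.87 ± 0.525). The 3 groups did not overlap, and MsOc3HBC lay between DMSO and HBC530. The log2 fold change against DMSO was 0.80 with HBC530 (SE 0.124, 95% confidence interval 0.52 to 1.07, adjusted p = 0.112) and 0.53 with MsOc3HBC (SE 0.134, 0.24 to 0.82, adjusted p = 0.224). The change with HBC530 was at percentile 99.6 of all 17684 genes tested and had an unadjusted p of 6.32e-05. It did not pass an adjusted p of 0.05 in edgeR or in limma-voom, and it did in DESeq2 (0.79, adjusted p = 0.000292). Over the 6 fits that left out 1 library, the adjusted p for HBC530 ran from 0.0689 (without HBC530 replicate 3) to 0.805 (without DMSO replicate 2), with log2 fold changes from 0.69 to 0.88.

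CCN1 (ENSG00000142871, chromosome 1, 85580761 to 85583962, plus strand) encodes the cysteine-rich angiogenic inducer that was formerly called CYR61. Its level was 11.5, 11.9 and 11.8 CPM with DMSO (11.7 ± 0.242), 14.4, 16.1 and 16.7 with HBC530 (15.8 ± 1.18) and 13.4, 14.1 and 14.03 with MsOc3HBC (13.8 ± 0.410). Again the 3 groups did not overlap and stood in the order DMSO, MsOc3HBC, HBC530, although in TPM the 2 ligands overlapped. Against DMSO the log2 fold change was 0.42 with HBC530 (SE 0.0974, 0.21 to 0.64, adjusted p = 0.751) and 0.24 with MsOc3HBC (SE 0.0962, 0.03 to 0.45, adjusted p = 0.417). Neither passed the threshold of 0.05.

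ANKRD1 (ENSG00000148677, chromosome 10, 90912096 to 90921276, minus strand) encodes the ankyrin repeat protein CARP of muscle, and it was close to the limit of detection here. It had 4, 5 and 8 counts with DMSO, 11, 20 and 13 with HBC530 and 17, 15 and 10 with MsOc3HBC. These are 0.0873, 0.0834 and 0.128 CPM (0.0996 ± 0.0248), then 0.209, 0.346 and 0.394 (0.316 ± 0.0957) and 0.381, 0.274 and 0.373 (0.343 ± 0.0595). Every ligand library lay above every DMSO library, and the 2 ligands overlapped. The fitted log2 fold change was 1.59 with HBC530 (SE 0.393, 0.72 to 2.46, adjusted p = 0.751) and 1.71 with MsOc3HBC (SE 0.378, 0.88 to 2.54, adjusted p = 0.149). ANKRD1 entered both tests only because its 3 ligand libraries exceeded the low-count limit (0.183 and 0.203 CPM), which no DMSO library did, so a higher value with the ligand was a condition of being tested.

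**Figure D1:**
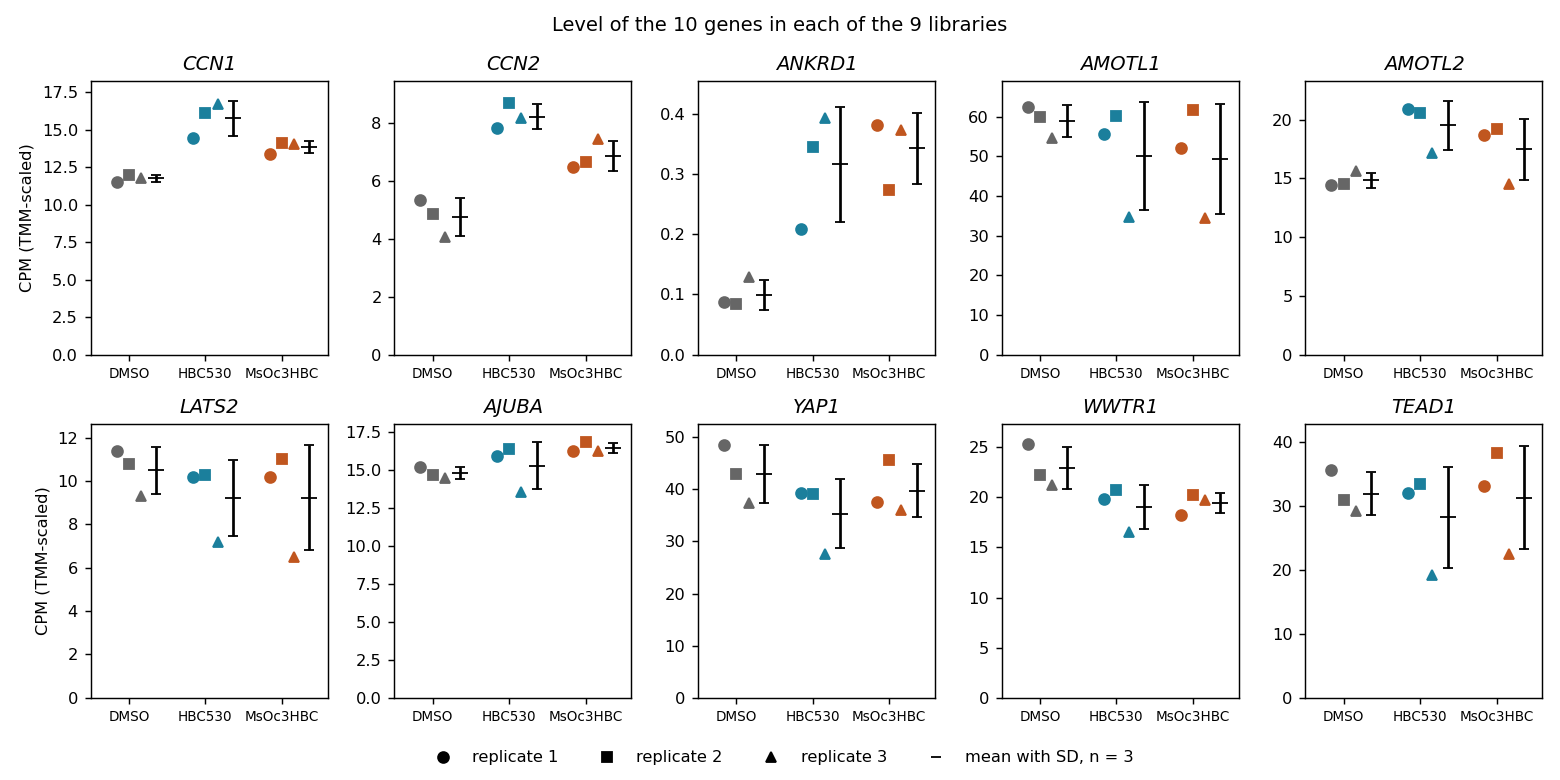
Level of each of the 10 genes in CPM on TMM-scaled libraries (vertical axes from 0, 1 panel per gene) under DMSO, HBC530 and MsOc3HBC, with circles, squares and triangles for replicates 1, 2 and 3 and black bars for the mean with SD (n = 3). CCN1, CCN2 and ANKRD1 lie above DMSO in every ligand library, whereas replicate 3 of each ligand is the lowest of its treatment for AMOTL1, AMOTL2, LATS2, YAP1 and TEAD1.

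Among the regulators, AMOTL2 was the gene whose HBC530 libraries all lay above DMSO, while AMOTL1, LATS2 and AJUBA overlapped DMSO with HBC530. AMOTL2 (ENSG00000114019, chromosome 3, 134355874 to 134375479, minus strand) encodes an angiomotin-like scaffold that binds YAP at junctions and is also a YAP target. It had 14.4, 14.5 and 15.6 CPM with DMSO (14.8 ± 0.646), 20.9, 20.6 and 17.1 with HBC530 (19.5 ± 2.08) and 18.7, 19.2 and 14.5 with MsOc3HBC (17.5 ± 2.59). With MsOc3HBC, replicates 1 and 2 lay above DMSO and replicate 3 fell within it. In TPM HBC530 replicate 3 (8.45) also fell within DMSO (up to 8.72). Its log2 fold change was 0.40 with HBC530 (SE 0.105, 0.17 to 0.63, adjusted p = 0.751) and 0.24 with MsOc3HBC (SE 0.120, -0.02 to 0.51, adjusted p = 0.487). Without replicate 3 of the ligand it was 0.49 (adjusted p = 0.0873) and 0.35 (adjusted p = 0.117).

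AMOTL1 (ENSG00000166025, chromosome 11, 94706431 to 94876753, plus strand) is the paralogue of AMOTL2. It had 62.5, 59.8 and 54.6 CPM with DMSO (59.0 ± 4.001), 55.5, 60.1 and 34.7 with HBC530 (50.1 ± 13.5) and 52.0, 61.7 and 34.4 with MsOc3HBC (49.4 ± 13.9). Replicate 3 of each ligand was far below all other libraries, whereas replicates 1 and 2 of either ligand overlapped the DMSO range. The log2 fold changes of -0.23 with HBC530 (SE 0.170, adjusted p = 0.751) and -0.25 with MsOc3HBC (SE 0.169, adjusted p = 0.605) became -0.02 and -0.05 without the ligand's replicate 3.

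LATS2 (ENSG00000150457, chromosome 13, 20973032 to 21061547, minus strand) encodes a kinase that phosphorylates YAP. It had 11.4, 10.8 and 9.31 CPM with DMSO (10.5 ± 1.07), 10.2, 10.3 and 7.21 with HBC530 (9.23 ± 1.75) and 10.2, 11.03 and 6.49 with MsOc3HBC (9.24 ± 2.41). Here too replicate 3 was lowest in every treatment. LATS2 had a log2 fold change of -0.17 with HBC530 (SE 0.145, adjusted p = 0.755) and -0.16 with MsOc3HBC (SE 0.170, adjusted p = 0.750), and these became -0.03 and 0.02 without the ligand's replicate 3.

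AJUBA (ENSG00000129474, chromosome 14, 22971174 to 22982642, minus strand) encodes a LIM-domain protein that binds and restrains LATS kinases. Its level was 15.2, 14.7 and 14.5 CPM with DMSO (14.8 ± 0.371), 15.9, 16.4 and 13.5 with HBC530 (15.3 ± 1.54) and 16.2, 16.8 and 16.2 with MsOc3HBC (16.4 ± 0.338). The MsOc3HBC libraries all lay above DMSO in CPM and the HBC530 libraries did not, and in TPM MsOc3HBC replicate 3 (8.26) fell within DMSO (up to 8.93). AJUBA had a log2 fold change of 0.05 with HBC530 (SE 0.102, adjusted p = 0.886) and 0.16 with MsOc3HBC (SE 0.0933, adjusted p = 0.559).

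For the coactivators and their DNA-binding partner, the estimates against DMSO were below 0 with either ligand (TEAD1 with MsOc3HBC turned to 0.0044 under upper-quartile scaling), and none passed an adjusted p of 0.05. YAP1 (ENSG00000137693, chromosome 11, 102110461 to 102233423, plus strand) encodes YAP itself. Its level was 48.4, 43.0 and 37.3 CPM with DMSO (42.9 ± 5.58), 39.2, 39.1 and 27.7 with HBC530 (35.3 ± 6.64) and 37.6, 45.6 and 36.0 with MsOc3HBC (39.8 ± 5.13). Both ligands overlapped DMSO. The log2 fold change was -0.28 with HBC530 (SE 0.145, -0.60 to 0.05, adjusted p = 0.751) and -0.10 with MsOc3HBC (SE 0.123, -0.37 to 0.16, adjusted p = 0.780). Without the ligand's replicate 3 these were -0.12 and -0.04.

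WWTR1 (ENSG00000018408, chromosome 3, 149517235 to 149736714, minus strand) encodes TAZ. It had 25.3, 22.3 and 21.2 CPM with DMSO (22.9 ± 2.12), 19.9, 20.7 and 16.5 with HBC530 (19.0 ± 2.22) and 18.3, 20.2 and 19.7 with MsOc3HBC (19.4 ± 1.0). In CPM every ligand library lay below every DMSO library, by the smallest margin between DMSO replicate 3 and HBC530 replicate 2. In TPM the groups overlapped, with 8.45 in DMSO replicate 3, 8.62 in HBC530 replicate 2 and 8.59 in MsOc3HBC replicate 2. WWTR1 had a log2 fold change of -0.26 with HBC530 (SE 0.114, -0.52 to -0.01, adjusted p = 0.751) and -0.24 with MsOc3HBC (SE 0.103, -0.46 to -0.01, adjusted p = 0.439). Without the ligand's replicate 3 it was -0.17 and -0.25. An antisense gene that shares exonic bases with it, WWTR1-AS1, held a mean of 8.9 counts against 1005.8 for WWTR1.

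TEAD1 (ENSG00000187079, chromosome 11, 12674591 to 12944483, plus strand) encodes the DNA-binding partner of YAP and TAZ. It had 35.7, 30.9 and 29.2 CPM with DMSO (31.9 ± 3.35), 32.0, 33.4 and 19.2 with HBC530 (28.2 ± 7.83) and 33.2, 38.2 and 22.4 with MsOc3HBC (31.3 ± 8.08). Apart from replicate 3 of each ligand, the libraries of the 3 treatments overlapped. The log2 fold change was -0.17 with HBC530 (SE 0.180, adjusted p = 0.789) and -0.02 with MsOc3HBC (SE 0.165, adjusted p = 0.978), and without the ligand's replicate 3 it was 0.04 and 0.17.

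With HBC530 against DMSO, edgeR called 0 of the 10 genes at an adjusted p under 0.05, where it called 0.017% of the 17684 genes tested. DESeq2 called 1 (CCN2), with 0.0892% of its 22426 genes called, and limma-voom called 0, with 0.0283% of all genes. With no filter on low counts edgeR called CCN2, and 0.146% of the genes then tested. Leaving ANKRD1 aside, 4 of the other 9 genes had an unadjusted p under 0.05 (CCN1, CCN2 and AMOTL2 higher, WWTR1 lower), against 5.07% of all genes. The genes and lists were chosen with earlier results of these data known. Shares set beside those of all genes, here and below, are therefore description and no test. In CPM, 3 of these 9 (CCN1, CCN2 and AMOTL2) had HBC530 libraries that all lay above DMSO, where 7.17% of all genes did, and 1 (WWTR1) had libraries all below, where 6.64% did. In TPM the numbers were 2 (CCN1 and CCN2) and 0. Without HBC530 replicate 3, edgeR again called 0 of 10, and 3 of the other 9 had an unadjusted p under 0.05.

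With MsOc3HBC against DMSO, edgeR called 0 of 10, where it called 0.154% of the 17514 genes tested. DESeq2 called 0 of the 9 genes to which it gave an adjusted p (0.858% of 15494 genes, ANKRD1 having none), and limma-voom called 0 of 10 (0.12% of all genes). With no filter on low counts edgeR called ANKRD1, and 0.706% of the genes then tested. Leaving ANKRD1 aside, an unadjusted p under 0.05 was reached by 3 of the other 9 (CCN1 and CCN2 higher, WWTR1 lower), against 10.9% of all genes. In CPM, 3 of these 9 (CCN1, CCN2 and AJUBA) had libraries all above DMSO, against 9.34% of all genes, and 1 (WWTR1) had libraries all below, against 8.96%. In TPM the numbers were again 2 (CCN1 and CCN2) and 0. Without MsOc3HBC replicate 3, edgeR called 0 of 10, and 4 of the other 9 had an unadjusted p under 0.05.

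**Figure D2:**
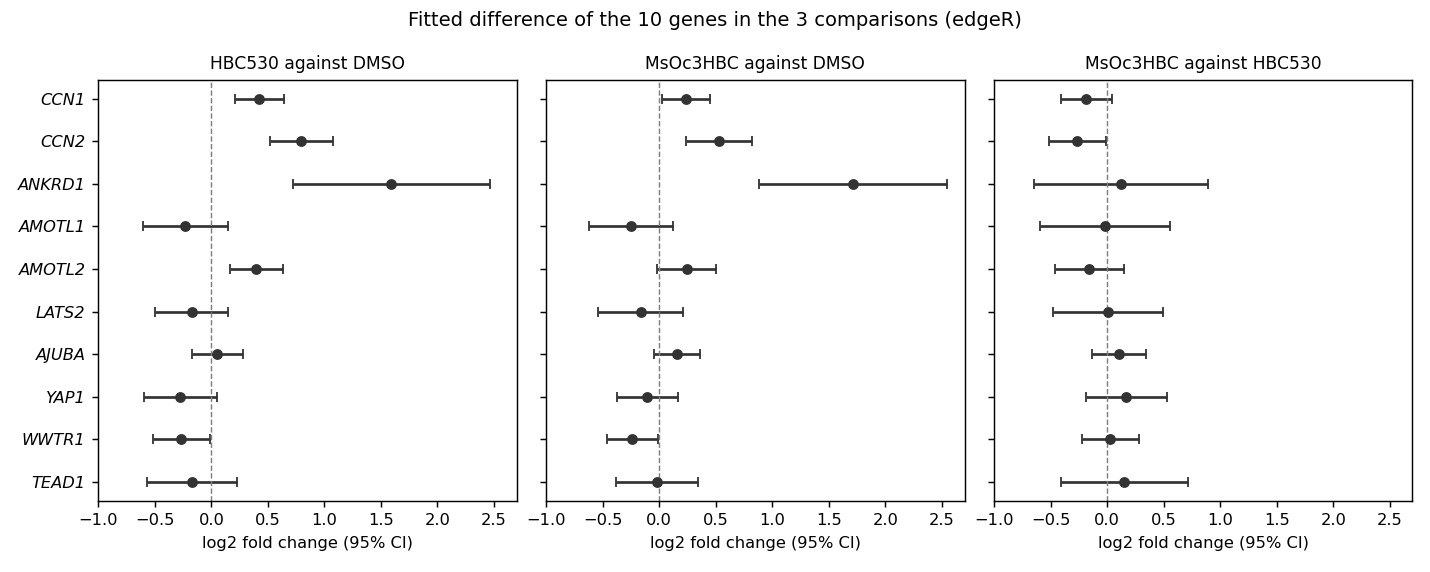
Log2 fold change of each of the 10 genes by edgeR (horizontal axis, points) with its 95% confidence interval (bars), in a panel each for HBC530 against DMSO, MsOc3HBC against DMSO and MsOc3HBC against HBC530, with a dashed line at 0. The intervals of CCN1, CCN2 and ANKRD1 lie above 0 and that of WWTR1 below 0 in both comparisons with DMSO, and between the ligands only the interval of CCN2 (-0.52 to -0.01) leaves out 0, before adjustment over all genes. ANKRD1 entered both comparisons with DMSO only through its ligand libraries.

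The 2 ligands share a scaffold, dose and time and differ in the mesyloxypropyl handle, and they form the only pair of compounds that was compared. CCN2 and CCN1 stood lower in CPM with MsOc3HBC than with HBC530 in every library. The log2 difference of MsOc3HBC against HBC530 was -0.27 for CCN2 (SE 0.109, -0.52 to -0.01, adjusted p = 0.654) and -0.19 for CCN1 (SE 0.0972, -0.41 to 0.04, adjusted p = 0.707). For ANKRD1 the difference was 0.12, with an interval from -0.65 to 0.89 that leaves room for a change of either sign. The intervals were narrower for WWTR1 (0.03, -0.23 to 0.28) and AJUBA (0.10, -0.13 to 0.34). They ran from -0.47 to 0.15 for AMOTL2, from -0.18 to 0.53 for YAP1, from -0.48 to 0.50 for LATS2, from -0.59 to 0.55 for AMOTL1 and from -0.41 to 0.71 for TEAD1. None of the 10 intervals reached a log2 difference of 1 in either direction.

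By edgeR 0 of the 10 genes and 0 of 17397 genes in all (0%) passed an adjusted p of 0.05 between the ligands. An unadjusted p under 0.05 was reached by 1 (CCN2), against 7.32% of all genes. DESeq2 called 0 of the 9 genes to which it gave an adjusted p (0.227% of 10560 genes), and limma-voom called 0 of 10 (0% of all genes). Libraries with MsOc3HBC lay wholly below those with HBC530 for 2 of the 10 genes, CCN1 and CCN2, against 8.5% of all genes, and wholly above for 0, against 6.83%. In TPM this held for CCN2 alone. Same-numbered libraries of the 2 ligands correlated after treatment means were subtracted, but replicate 3 of both lay apart, which alone can raise such correlations. A pairing was therefore not shown. With the replicate as a block, 1990 genes (11.4%) passed. With GC and length trends removed in the same blocked fit, 303 (1.76%) passed. None of the 10 did in either fit. The blocked fit without that removal had CCN2 at a log2 difference of -0.27 (SE 0.0887, adjusted p = 0.0636), CCN1 at -0.18 (adjusted p = 0.112) and TEAD1 at 0.15 (adjusted p = 0.119). Without replicate 3 of both ligands, a fit with no block called 9.16% of all genes and 0 of the 10. At an unadjusted p under 0.05 the blocked fit held 5 of the 10, against 27.2% of all genes.

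Replicate 3 of both ligands held low values of several members with long transcripts, though not of each. TEAD1, with 10279 exonic bases, stood 0.77 lower on the log2 scale in HBC530 replicate 3 than in the mean of replicates 1 and 2, and the difference was -0.67 for MsOc3HBC and -0.19 for DMSO. AMOTL1 (10035 bases) gave -0.73, -0.72 and -0.16 in the same order, and LATS2 (5578 bases) gave -0.51, -0.71 and -0.25. YAP1 (6296 bases) gave -0.50, -0.20 and -0.29. WWTR1, the third longest (8413 bases), gave -0.30, 0.04 and -0.16, and AJUBA (5979 bases) gave -0.26, -0.03 and -0.05. AMOTL2 (5984 bases) gave -0.27, -0.39 and 0.11. The short genes differed from these, with CCN1 (2455 bases) at 0.13, 0.03 and 0.01 and CCN2 (2339 bases) at -0.01, 0.18 and -0.33.

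The whole transcriptome showed a like trend. In HBC530 replicate 3 the median difference was 0.29 for the 3977 expressed genes of up to 2000 exonic bases and -0.24 for the 2989 genes over 8000. MsOc3HBC replicate 3 gave 0.20 and -0.26. DMSO replicate 3 gave 0.06 and -0.07. In replicate 3 of both ligands, TEAD1, AMOTL1, LATS2, AMOTL2, YAP1 and AJUBA lay below the median of their length class. For AJUBA with MsOc3HBC the margin was small (-0.029 against -0.026). WWTR1 and CCN2 lay below it with HBC530 alone, and CCN1 and ANKRD1 with MsOc3HBC alone. When trends with GC content and length were removed within each library, the log2 fold change with HBC530 was 0.76 for CCN2 (adjusted p = 0.144), -0.17 for AMOTL1 and -0.08 for TEAD1, and with MsOc3HBC it was 1.62 for ANKRD1 (adjusted p = 0.0982) and 0.33 for AMOTL2. ANKRD1 again entered that test only through its ligand libraries.

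**Figure D3:**
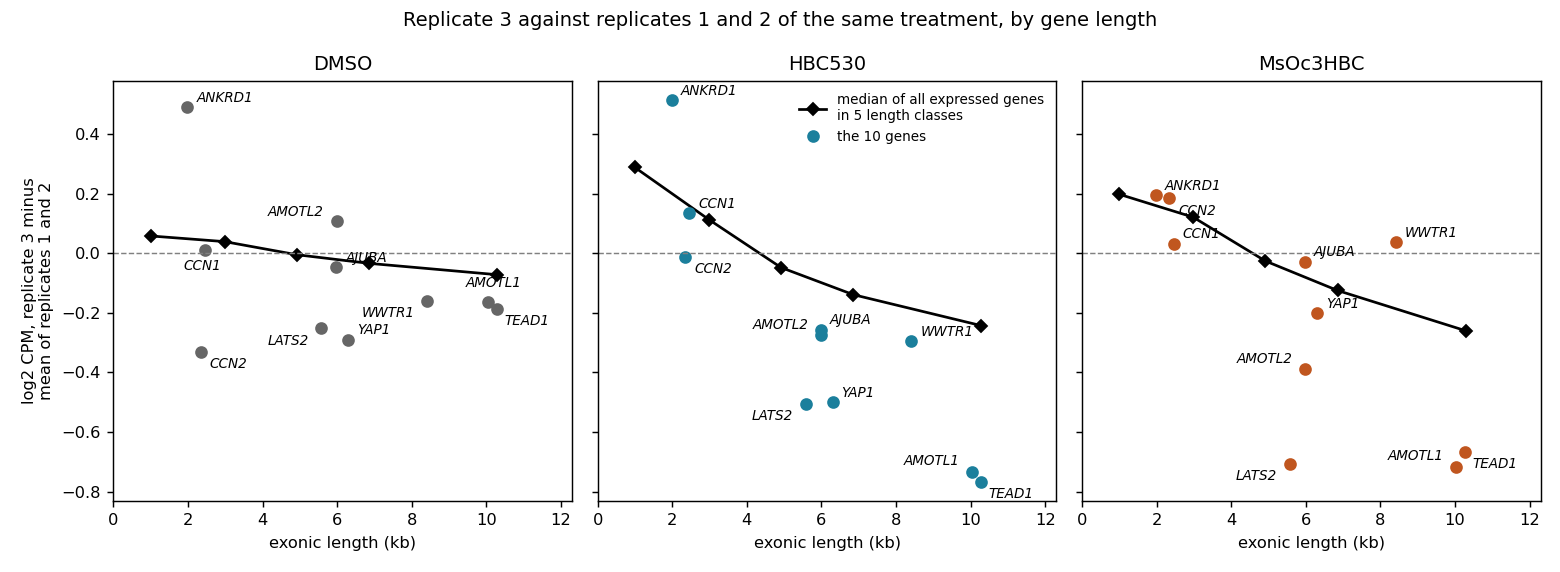
Log2 CPM of replicate 3 minus the mean of replicates 1 and 2 of the same treatment (vertical axis) against exonic length in kb (horizontal axis) for the 10 genes (circles) and for the median of all expressed genes in 5 length classes (black diamonds), in a panel each for DMSO, HBC530 and MsOc3HBC. Between the shortest and the longest class the medians go from 0.29 to -0.24 under HBC530, 0.20 to -0.26 under MsOc3HBC and 0.06 to -0.07 under DMSO. TEAD1, AMOTL1, LATS2, AMOTL2, YAP1 and AJUBA lie below the median of their class with both ligands, AJUBA barely so with MsOc3HBC.

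**Figure D4:**
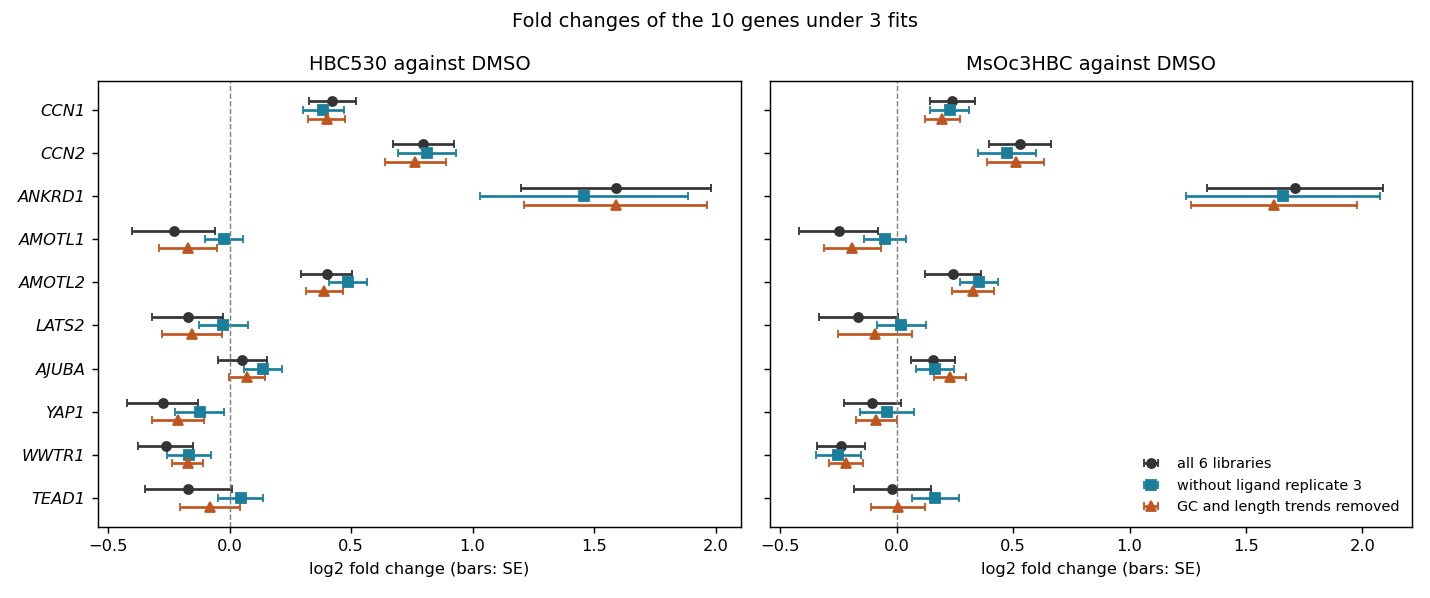
Log2 fold change against DMSO by edgeR (horizontal axis, points with SE bars) for the 10 genes with all 6 libraries (circles), without the ligand's replicate 3 (squares) and with GC and length trends removed (triangles), in a panel each for HBC530 and MsOc3HBC. CCN1, CCN2, ANKRD1 and AMOTL2 stay above 0 in the 3 fits, whereas AMOTL1 moves from -0.23 to -0.02 (HBC530) and from -0.25 to -0.05 (MsOc3HBC) when replicate 3 is left out. ANKRD1 entered each of the 3 fits only through its ligand libraries, so a higher value with the ligand was a condition of being tested.

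The rest of the pathway was read from the same fits, by lists that include the 10 genes. Among the targets of YAP and TEAD, 19 of 22 listed genes were tested and 0 passed an adjusted p of 0.05 with either ligand. Leaving ANKRD1 aside, the median log2 fold change of the other 18 was 0.03 with HBC530 and -0.03 with MsOc3HBC, beside 0.00 and 0.01 over all genes tested. Of these 18, 4 were higher at an unadjusted p under 0.05 with HBC530 (CCN1, CCN2, AMOTL2 and GADD45A). With MsOc3HBC 3 were higher (CCN1, CCN2 and GADD45A), and with each ligand 0 of the 18 were lower. All but GADD45A are among the 10 genes already described. Over all genes 5.07 and 10.9% reached such a p in either direction. The smallest unadjusted p of the list was that of CCN2 with HBC530. With MsOc3HBC it was that of GADD45A, a stress-induced inhibitor of growth, which had 32.4, 34.9 and 31.5 CPM with DMSO and 46.3, 41.0 and 52.0 with MsOc3HBC (log2 fold change 0.50, SE 0.109, adjusted p = 0.142). GADD45A lay above DMSO in all 6 ligand libraries.

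Of the 6 genes of the CCN family 3 were expressed enough to be tested, and CCN6 was the third beside CCN1 and CCN2. It had 0.305, 0.401 and 0.208 CPM with DMSO and 0.403, 0.786 and 0.373 with MsOc3HBC, where replicate 2 stood apart at 43 counts and replicate 3 overlapped DMSO. The upstream kinases and adaptors (18 of 19 tested) had 0 calls with either ligand and medians of -0.07 and -0.01. Their smallest unadjusted p belonged to the kinases TAOK1 with HBC530 (-0.35, SE 0.185, adjusted p = 0.751) and TAOK3 with MsOc3HBC (0.22, SE 0.0946, adjusted p = 0.436). The junction and LIM-domain regulators (15 of 15 tested) also had 0 calls, with medians of -0.15 for both ligands, and AMOTL2 had the smallest unadjusted p in each comparison with DMSO. The genes at these medians were lowest in the ligand's replicate 3. PTPN14 had 22.5 CPM there with HBC530, against 25.7 and 29.2, and LIMD1 had 53.0 with MsOc3HBC, against 72.3 and 75.1. Their blocked estimates of -0.16 and -0.17 were -0.04 and -0.09 with GC and length trends removed as well. The medians of the list were not taken in that fit.

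The coactivators, TEAD factors and their VGLL competitors (9 of 10 tested) had 0 calls, with medians of -0.17 with HBC530 and -0.15 with MsOc3HBC. Over all genes tested the medians were 0.00 and 0.01, and the share of estimates below 0 was not counted. With MsOc3HBC the 9 estimates were all below 0 (TEAD1 not so under upper-quartile scaling), among them VGLL4, which competes with YAP for TEAD (-0.30, SE 0.135, adjusted p = 0.457). With HBC530 5 of 9 were below 0, and VGLL4 had the smallest unadjusted p (-0.33, SE 0.125, adjusted p = 0.751). As for TEAD1, VGLL4 was lowest in replicate 3 of each ligand (18.5 CPM in both, against 23.9 to 28.3 in replicates 1 and 2). The 14-3-3 proteins (7 of 7 tested) had 0 calls and medians of -0.01 with both ligands, with YWHAG at -0.15 with either ligand (adjusted p = 0.751 and 0.640).

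RHOB, which encodes a small GTPase of endosomes and is made early after stress, was the listed gene that passed with each ligand. It rose from 142 to 159 CPM with DMSO to 345 to 376 with HBC530 (log2 fold change 1.25, SE 0.0851, adjusted p = 0.000469) and to 256 to 278 with MsOc3HBC (0.80, SE 0.0919, adjusted p = 0.00508). It had the same order of treatments as CCN1 and CCN2, and it was 0.45 lower with MsOc3HBC than with HBC530 (SE 0.0849), at an adjusted p of 0.643 without the block and 0.000212 with it. The actin genes and targets of serum response factor (16 of 18 tested) had 0 calls. With HBC530 14 of 16 estimates were above 0 (median 0.13), and with MsOc3HBC 8 of 16 were (median 0.00). Over all genes tested the medians were 0.00 and 0.01, and the share of estimates above 0 was not counted. TPM1 with HBC530 (0.24, SE 0.0928, adjusted p = 0.751) and TPM2 with MsOc3HBC (0.29, SE 0.128, adjusted p = 0.448), both tropomyosins of actin filaments, had the smallest unadjusted p of that list.

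Between the ligands, edgeR called 0 genes of any of these lists without the block. The blocked fit called TEAD4, a TEAD factor that had 47.3, 48.8 and 52.1 CPM with HBC530 and 40.3, 40.6 and 42.5 with MsOc3HBC (log2 difference -0.26, SE 0.0838, adjusted p = 0.643 without the block and 0.00934 with it). Its DMSO libraries lay at 43.8 to 47.1 CPM, between those of the ligands. TEAD1 differed from it in sign, at 0.15. With GC and length trends removed in the blocked fit, TEAD4 was at -0.14 (adjusted p = 0.131). Beside TEAD4 and RHOB the blocked fit called 12 listed genes, 5 higher with MsOc3HBC (the kinases LATS1 and TAOK1, their adaptor MOB1B, and the targets ASAP1 and GADD45A) and 7 lower (SCRIB, FJX1, ACTG1, FLNA, MRTFA, SRF and CNN2). Only RHOB (-0.36, adjusted p = 0.0028) and ACTG1, a cytoplasmic actin (-0.24, adjusted p = 0.0355), were called among the 14 when the trends were removed as well, and the adjusted p of the other 12 ran from 0.0534 for GADD45A to 0.733 for SRF. LATS2 and TEAD1 were called in neither fit. SFN, a 14-3-3 protein, had the smallest unadjusted p of its list (-0.25, adjusted p = 0.834 without the block).

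Across the 9 libraries, CCN1 and CCN2 followed each other with a Pearson r of 0.908 on the log2 CPM scale, and ANKRD1 had an r of 0.832 with CCN1 and 0.794 with CCN2. These correlations include the difference between treatments, and the libraries share scaling and depth. AMOTL2 had an r of 0.635 with CCN1, which was 0.937 in the 7 libraries other than replicate 3 of the ligands. WWTR1 ran against ANKRD1 (-0.822) and CCN1 (-0.749). Among 13611 genes, those with the highest r to CCN1 were ZNF76 (0.957), RHOB (0.945), DUSP1 (0.943), CCDC96 (0.94) and POLR3D (0.936). For CCN2 they included HBEGF (0.954), RHOB (0.928), HSPB8 (0.927) and KLF6 (0.915). The values for ANKRD1 among 13612 genes rest on counts of 4 to 20 and were led by C22orf39 (0.954), PTP4A3 (0.949), SPOCD1 (0.947), DCAF10 (0.945) and MORN4 (0.94). Without replicate 3 of both ligands, 2 of the 5 genes for CCN1 and 1 for ANKRD1 were again among the 5 highest.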

How the data were processed

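RNA of HEK293T cells was sequenced in 9 libraries, 3 each for DMSO, HBC530 and MsOc3HBC, and groups and replicate numbers follow the sample labels. Read trimming (Trimmomatic 0.36), alignment to GRCh38 (STAR 2.5.2b) and counting of unique hits per gene (featureCounts, Subread 1.5.2) were done by the authors. Their deposited files hold these raw counts of 57500 genes. The annotation release, the strand setting and the counting of pairs are not given in the sources used here, so genes that overlap can share reads. The authors' 2 tables for each ligand against DMSO, from DESeq2, also hold fold changes, p-values and normalized values. Only their gene names were used, together with the exonic length and positions in the count files. Of the gene IDs, 56410 matched a current name.

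Each pair of treatments was fitted on its own 6 libraries in R 4.3.3 with edgeR 4.0.16 (filterByExpr, TMM factors, quasi-likelihood F test, two-sided), with Benjamini-Hochberg adjustment over all genes tested and a threshold of 0.05. Alternatives were DESeq2 1.42.0, limma-voom (limma 3.58.1), RLE and upper-quartile scaling, other filters, a joint fit of the 9 libraries, a replicate block, removal of GC and length trends (splines with 5 degrees of freedom), and each library left out. Log2 CPM had a prior count of 1. Only the main edgeR fit was tested on simulated counts, which held no shift of replicate 3 or with gene length. The alternatives were not tested in that way. Replicates of a treatment correlated across genes with r from 0.9863 to 0.9965 and differed by more than sampling noise (chi-square per gene from 5.73 to 65.3).

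The 10 genes and the gene lists were chosen with earlier results of these data known. Named beside the 10 genes were list genes with an adjusted p under 0.05 in any comparison, the gene with the smallest unadjusted p of each list and comparison, and the 5 genes most like CCN1, CCN2 and ANKRD1 by r over the 9 libraries (mean of at least 1 CPM). CCN6, PTPN14, LIMD1, the second mention of VGLL4 and the genes of the blocked fit fall outside that rule and were named after their values were seen. A gene and a gene list that this rule covers are not reported here. Whether the replicate numbers of the labels pair libraries was checked by correlating same-numbered libraries after their treatment means were subtracted. Between the 2 ligands these correlations were 0.167, 0.368 and 0.433, all over 0.1, so blocked values are given there.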

Additional observations from a re-analysis of the deposited data

How the results depend on the processing

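No gene of the 10 passed an adjusted p of 0.05 in any of the 3 comparisons under RLE or upper-quartile scaling, limma-voom, a minimum of 10 counts per library, a joint fit of the 9 libraries, or any fit that left out a library (0 genes in each). With HBC530 the number was 1 under DESeq2, with no filter on low counts, with the replicate block, and with GC and length trends removed together with the replicate block, in each case CCN2 (adjusted p of 0.000292, 4.8e-05, 0.0239 and 0.0453). With MsOc3HBC it was 1 with no filter and 1 with the replicate block, in each case ANKRD1 (0.0374 and 0.0486). In the blocked fit ANKRD1 again entered only through its ligand libraries, so a higher value was a condition of that test. The replicate numbers were not shown to pair the ligand libraries with DMSO: the correlations of same-numbered libraries were 0.0871, 0.0127 and 0.172 with HBC530 and -0.111, 0.00973 and 0.041 with MsOc3HBC. With the block the genes called in all went from 3 to 16 (0.0905%) for HBC530 and from 27 to 149 (0.851%) for MsOc3HBC.

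These directions turned, and the cause was not tested. Over the fits that left out 1 library, the log2 fold change with HBC530 ran for AJUBA from -0.0012 (without HBC530 replicate 2) to 0.1362 and for TEAD1 from -0.3108 to 0.0445 (without HBC530 replicate 3). With MsOc3HBC it ran for LATS2 from -0.3109 to 0.0207 (without MsOc3HBC replicate 3) and for TEAD1 from -0.19 to 0.1666 (the same library; 0.0637 without DMSO replicate 1), and TEAD1 was 0.0044 under upper-quartile scaling and 0.005 with trends removed. Between the ligands it ran for ANKRD1 from -0.1192 (without HBC530 replicate 1) to 0.2894. For AMOTL1 it ran from -0.2199 to 0.184 (without MsOc3HBC replicate 3; 0.0584 and 0.1323 without HBC530 replicates 1 and 2). For LATS2 it ran from -0.1339 (without MsOc3HBC replicate 2; -0.0621 without its replicate 1 and -0.13 without HBC530 replicate 3) to 0.1961, and it was -0.0029 with no filter. For WWTR1 it ran from -0.0624 (without HBC530 replicate 3; -8e-04 without MsOc3HBC replicate 2) to 0.0911, and it was -0.035 with trends removed, -0.0453 with the block as well and -0.0819 without replicate 3 of both ligands. For TEAD1 it ran from -0.056 (without HBC530 replicate 3; -0.0141 without MsOc3HBC replicate 2) to 0.3388. CCN1, CCN2, AMOTL2 and YAP1 kept their direction in every comparison and setting run.

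The number of genes called in all, which sets the background, was 6 without HBC530 replicate 3 and 2 without each other library for HBC530 (3 with all). For MsOc3HBC (27 with all) it was 76 without MsOc3HBC replicate 3, 10 and 23 without its replicates 1 and 2, and 6, 12 and 11 without DMSO replicates 1 to 3. Between the ligands it was 0 with each library left out, and 1635 without replicate 3 of both. Depth limits ANKRD1 most, at 4 to 20 counts. Under the minimum of 10 counts it was not tested against DMSO. Leaving out replicate 3 of both ligands gave, for each comparison with DMSO, the same fit as leaving out that ligand's replicate 3. The comparison of libraries in TPM in place of CPM was added after seeing the data. It left CCN1 and CCN2 apart from DMSO with either ligand and removed AMOTL2, AJUBA and WWTR1 from the genes, other than ANKRD1, whose libraries did not overlap.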
